A study of Arabidopsis thaliana with 6 samples.

Results

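The mitochondrial genome of Arabidopsis thaliana encodes part of respiratory complex I, and the probe sets examined here read the transcripts of nad1, nad2, nad4, nad4L, nad5, nad6, nad7 and nad9. They were taken as the probe sets that the platform annotation pairs with exactly 1 gene of these 8 symbols. This gave 15 of the 22810 probe sets on the array, for 8 of the 13350 genes that have a probe set of their own, of which 7 pair with nad1, 2 with nad5 and 1 with each of the other genes. The annotation does not say which exon or intron a probe set reads, so the 7 probe sets of nad1 may read different stretches of the gene. Another 2 probe sets pair with nad1 and a nuclear locus of chromosome 2 together, and lay outside that rule.

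Complex I is the NADH dehydrogenase of the respiratory chain. It passes electrons from NADH to ubiquinone and pumps protons across the inner mitochondrial membrane. The products of nad1, nad2, nad4, nad4L, nad5 and nad6 lie in its membrane arm, where those of nad2, nad4 and nad5 resemble proton antiporters, and the products of nad7 and nad9 belong to the part of the matrix arm that hands electrons to ubiquinone. In flowering plants the coding parts of nad1, nad2 and nad5 are scattered over the mitochondrial genome, and their RNAs are joined by trans-splicing. Apart from the product of nad3, a mitochondrial gene that was not analysed here, the other subunits are encoded in the nucleus and imported.

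The 6 samples were Columbia seedling roots, harvested 6 days after germination. All of them, the whole roots included, had been moved from standard medium to medium with 0.3 mM of the iron chelator ferrozine in place of iron for 24 hours, so no sample with iron is compared. In 3 samples RNA came from intact whole roots and in the other 3 from roots whose cell walls had been digested and whose protoplasts had all been collected after passing a cell sorter; no cell type was selected. One array was hybridised per sample. The labels do not say whether replicates were grown separately. Each p-value of a difference from whole roots therefore reflects at most how far these samples scatter, possibly for technical reasons. The fit described below also took part of each variance from other tested probe sets. P-values relative to the nad median, described below, do not measure even the scatter of these samples.

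The deposited values were MAS5 signal intensities, with array medians of 74.9 to 91.5. The background level of an array was set at its highest reading among 27 bacterial control probe sets. It lay at 10.4 to 16.8 on the whole-root arrays and at 14.3 to 57.4 on the sorted-cell arrays. Both root hair markers, EXPA7 (-2.31) and EXPA18 (-3.33), fell in sorted cells on the log2 scale, as did both ground tissue markers (-2.13 and -4.19), both green tissue markers (-1.64 and -3.09) and the stele marker (-0.79). The root cap marker AT1G65570 read 187 to 222 in whole roots and 3069 to 6875 in sorted cells. It is a single probe set and gives no measure of root cap content. In such bulk samples, fewer cells of a type and less RNA per cell cannot be told apart. Sorted-cell arrays also stood apart in the control probe sets. For GAPDH the 3′ probe set exceeded the 5′ one by 0.67 to 0.91 (log2) on whole-root arrays and by 5.12, 3.41 and 2.44 on sorted-cell replicates 1, 2 and 3, and for a second actin pair by 1.60 to 1.85 and by 5.53, 4.09 and 3.37. The first actin pair did not separate the groups (4.81 to 5.73 and 4.85 to 5.35), and a ubiquitin pair stood at 1.79 to 1.97 and at 3.49, 2.20 and 2.09. Another GAPDH pair and another ubiquitin pair on the array were not compared in this way. The 25S ribosomal RNA control read 97.5 to 551 in whole roots and 5690 to 9583 in sorted cells. The part of these shifts in the results below was not tested.

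Most nad probe sets read low in whole roots and higher in sorted cells, where the background level reached higher values as well. Relative to that level, readings of different probe sets overlapped between the groups. On whole-root replicate 2 (level 11.8) the nad1 probe set 257324_at read 70.1, nad6 45.4 and nad4 33.5. On sorted-cell replicate 2 (level 36.3) they read 187, 340 and 3589, but nad4L read 105 and the nad5 probe set 257337_at 77.4. Of the 15 probe sets, 13 were higher on every sorted-cell array than on every whole-root array, which held for 26% of all probe sets other than controls. Those 13 read above the background level on all 3 sorted-cell arrays, and the other 2, for nad2 and nad7, on none. The mean over whole-root arrays was at most 34.7 for each of the 15.

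**Figure D1:**
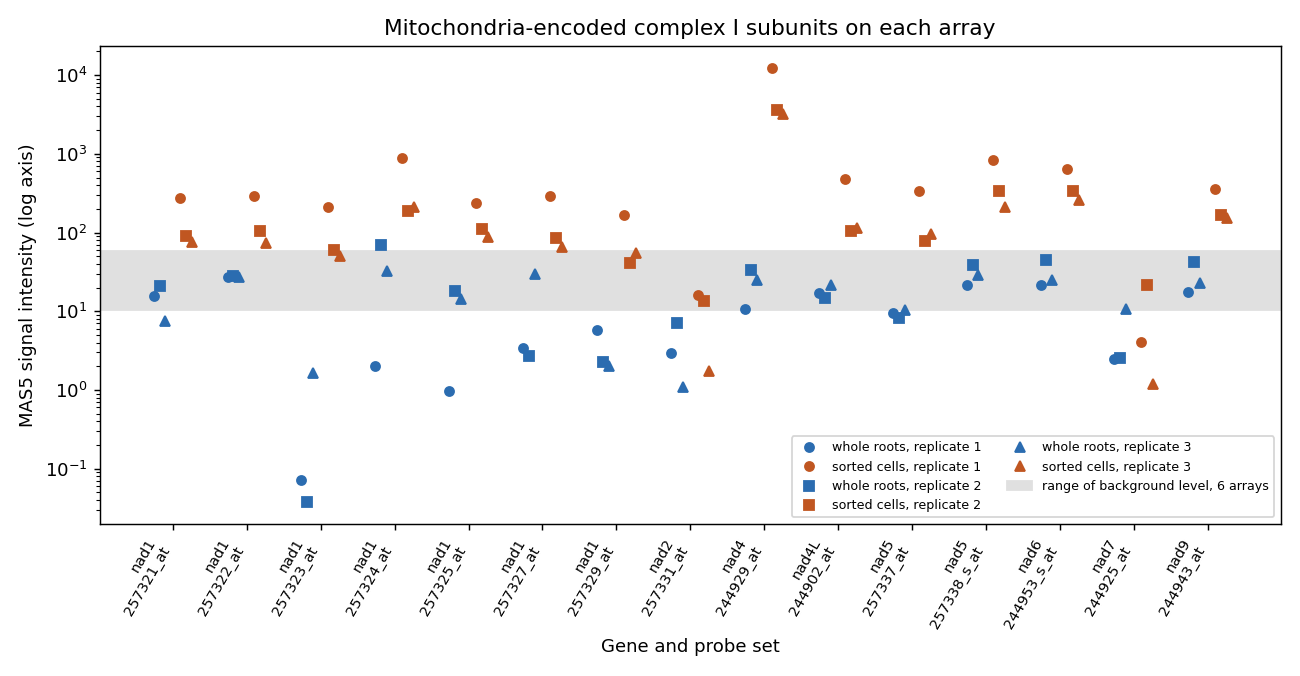
MAS5 signal intensity (log axis) of each of the 15 nad probe sets on the 3 whole-root arrays (blue) and the 3 sorted-cell arrays (orange), with 1 point per array and a grey band from the lowest to the highest background level of the 6 arrays. The groups overlap only for nad2 and nad7, nad4 reaches 12296 on sorted-cell replicate 1, and that array is the highest sorted-cell array for 14 of 15 probe sets.

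Differences were tested with limma over 13647 probe sets, left after the dimmest 40% by mean over all 6 arrays were removed, and were called at a Benjamini-Hochberg adjusted p under 0.05. Of all tested probe sets 55.4% were called, 24.7% as higher and 30.7% as lower in sorted cells. Of the nad probe sets 12 passed this filter, and 11 of them were called higher and none lower. The filter kept means of at least 53.9, and no member's whole-root mean came near it, so the 12 passed through their sorted-cell values and this count is a description. In a fit without the filter, which covers all 15, 13 were higher against 17.6% of all probe sets, with a median log2 difference of 3.75 for the 15 and of 0.15 for all. The 11 calls were kept in each fit that left out 1 array. Those fits used the probe sets chosen on all 6 arrays, so this is a description as well. The adjusted p-values of members given below come from the filtered fit unless stated otherwise and share that limit.

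Among members with a whole-root reading above the background level, the membrane-arm gene nad4 differed most. Its intensity was 10.7, 33.5 and 24.8 in whole roots and 12296, 3589 and 3234 in sorted cells (replicates 1 to 3). The groups lay far apart, and whole-root replicate 1 read below the background level, so the fold change of 252 is imprecise (difference ± SE of 7.98 ± 0.55 on the log2 scale, n = 3 arrays per group here and below; limma adjusted p = 1.52e-05). Only 4 of the 13647 tested probe sets had a larger difference, and one of these was a nad1 probe set with no reading above background in whole roots.

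The small membrane subunit gene nad4L read 17.1, 14.7 and 21.7 in whole roots and 485, 105 and 113 in sorted cells. All whole-root arrays were above the background level, replicate 1 only just (level 16.8). They lay below all sorted-cell arrays (10.2-fold, 3.35 ± 0.57 on the log2 scale, limma adjusted p = 0.00119). The nad6 probe set, whose ID carries the _s_at ending that marks probes matching more than 1 transcript, read 21.5, 45.4 and 24.8 in whole roots and 635, 340 and 256 in sorted cells. It rose 13.2-fold without overlap (3.72 ± 0.39 on the log2 scale; limma adjusted p = 9.98e-05).

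Both probe sets of nad5, whose RNA is trans-spliced, rose. The probe set 257338_s_at, which has the same _s_at ending as that of nad6, went from 21.5, 39.2 and 28.7 to 829, 333 and 213 (3.75 ± 0.46 on the log2 scale, limma adjusted p = 0.000217). The probe set 257337_at stayed at 8.19 to 10.2 in whole roots, under the background level on every array, and read 341, 77.4 and 95.8 in sorted cells. It was therefore at least 10.7-fold higher, a bound that sets the sorted-cell mean of log2 values against the background level of each whole-root array (limma adjusted p = 0.000877). The bound does not allow for the background level of sorted-cell arrays, which reached 57.4 on replicate 1. Rises given as at least a fold, here and below, thus bound the ratio of intensities and not the change in RNA. Plain folds and log2 differences, above and below, are ratios of intensities as well and do not allow for that level.

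The 7 probe sets of nad1, the membrane subunit next to the ubiquinone site, were all higher on every sorted-cell array than on any whole-root array. The probe set 257324_at read 1.99, 70.1 and 32.0 in whole roots and 886, 187 and 211 in sorted cells (4.31 ± 1.17 on the log2 scale; limma adjusted p = 0.0121). Its groups did not overlap, but whole-root replicate 1 stood far below the other 2, and without that array the difference was 2.79. The probe set 257322_at was the steadiest in whole roots, at 26.9, 28.4 and 27.6, and read 289, 106 and 73.4 in sorted cells. It had the smallest called difference of the family, 4.74-fold (2.24 ± 0.48 on the log2 scale; limma adjusted p = 0.00394).

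A further 3 nad1 probe sets were called, 257321_at at 3.20, 257325_at at 4.40 and 257327_at at 4.17 on the log2 scale, with readings above the background level on 1, 2 and 1 of the whole-root arrays. The probe set 257323_at read 0.0714, 0.0377 and 1.65 in whole roots and 214, 60.2 and 50.2 in sorted cells. Its groups were apart, yet the fit gave it a standard error of 7.12 at its low mean and it did not pass (limma adjusted p = 0.302); it passed without the filter (0.000673), without the variance trend and with an offset of 16 or 64 added to each intensity, and it was at least 6.81-fold higher by the same bound. The probe set 257329_at was too dim for the filter, read 5.73, 2.28 and 1.99 in whole roots and 165, 41.4 and 55.2 in sorted cells, and was at least 5.69-fold higher (limma adjusted p = 0.000927 without the filter). On sorted-cell replicate 2 it was close to the background level of that array, 36.3. The 2 probe sets shared between nad1 and the nuclear loci AT2G07701 and AT2G07702 rose as well, by 3.02 and 2.33 on the log2 scale, inside the range of the probe sets paired with nad1 alone. A stretch of mitochondrial DNA has been copied into chromosome 2 of Arabidopsis, and the array values do not separate such copies from the mitochondrial genes.

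The single nad2 probe set read 2.93, 7.18 and 1.10 in whole roots and 16.3, 13.4 and 1.72 in sorted cells. No array of either group was above the background level, so no fold is given; without the filter the difference was 1.34 ± 1.11 on the log2 scale (limma adjusted p = 0.375). Whether nad2 RNA changed was not detectable with this probe set.

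The 2 matrix-arm genes gave different readings. The nad9 probe set read 17.4, 42.2 and 23.0 in whole roots and 360, 169 and 152 in sorted cells. Every array was above the background level, though whole-root replicate 1 only just (level 16.8). The nad9 probe set rose 8.19-fold without overlap (3.03 ± 0.44 on the log2 scale, limma adjusted p = 0.000472). The nad7 probe set read 2.49, 2.54 and 10.8 in whole roots and 4.06, 21.3 and 1.19 in sorted cells. Just 1 of the 6 arrays, whole-root replicate 3, was above the background level there, so nad7 could not be measured with it (0.20 ± 1.16 on the log2 scale; limma adjusted p = 0.912 without the filter).

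Whether members rose by unequal amounts was tested by centring each array on the median log2 intensity of the tested nad genes, with the brightest probe set for each of 6 genes, and repeating the fit on all 13647 probe sets. Relative to that median 94.4% of all tested probe sets differed, 0.733% higher and 93.7% lower, while 2 of the 12 nad probe sets differed. That count is a description as well: the median was made from members, and the 3 members too dim for the filter, nad2 and nad7 among them, were not in it. Centring also gave every probe set the scatter of the same median. The fit treated that scatter as if it were separate in each probe set. Thus p-values relative to the median, here and below, do not measure the scatter of 3 arrays per group. Calls from them are descriptions. The nad4 probe set stood at 4.28 on the log2 scale relative to the median (SE 0.80, limma adjusted p = 2.57e-07). This value lay between 3.77 and 4.46 under all alternatives. The nad1 probe set 257323_at, with no whole-root reading above the background level, stood at 5.33 (limma adjusted p = 5.78e-05), but at -0.40 with an offset of 16. The other 10 stood between -1.46 and 0.69 and did not pass. The lowest of them, the nad1 probe set 257322_at, passed in 5 alternatives, among them without whole-root replicate 2 (-1.76) and without sorted-cell replicate 1 (-1.48). In whole roots the log2 means of nad4, nad4L, nad9, nad6 and the nad5 probe set 257338_s_at lay close together, at 4.14 to 4.85. In sorted cells they were 12.4 for nad4 and 7.48 to 8.60 for the others. The relative difference of nad4 thus lay mainly in its sorted-cell readings. A larger rise of nad4 RNA cannot be told apart from a brighter probe set.

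Sorted-cell arrays differed among themselves in the nad genes. Replicate 1 was the highest sorted-cell array for 14 of 15 nad probe sets, against 47.2% of all probe sets other than controls and 53% of those tested and called higher. The exception was nad7. The reading of replicate 1 over the mean of replicates 2 and 3 had a median of 3.31 over the 15 probe sets and of 1.11 over all. Replicate 1 was also highest for 8 of 8 other mitochondrial and 10 of 10 plastid ndh probe sets. The nuclear complex I genes did not share this order: replicate 1 was highest for 8 of 19 and the median ratio was 1.01. The same array had the widest 3′ to 5′ gap of GAPDH, of the second actin pair and of ubiquitin, the narrowest of the first actin pair, and the lowest 25S reading of the sorted-cell arrays, 5690, and the part of these in the nad values was not tested. Without sorted-cell replicate 1 the log2 difference was 7.36 for nad4 and 2.63 for nad4L, and those of the 12 tested nad probe sets lay between 1.67 and 8.38.

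Expressed as a shift from the whole-root mean, the median of the 15 nad probe sets was 4.84, 3.50 and 3.14 (log2) on sorted-cell replicates 1, 2 and 3. The corresponding medians were 5.47, 3.96 and 3.79 for 8 other mitochondrial probe sets and 5.52, 3.33 and 3.05 for 10 plastid ndh probe sets. They were 0.60, 0.96 and 0.76 for 19 nuclear complex I probe sets. Among whole roots the nad median was lowest on replicate 1, at -0.43, where the 25S control was lowest as well (-1.48).

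**Figure D2:**
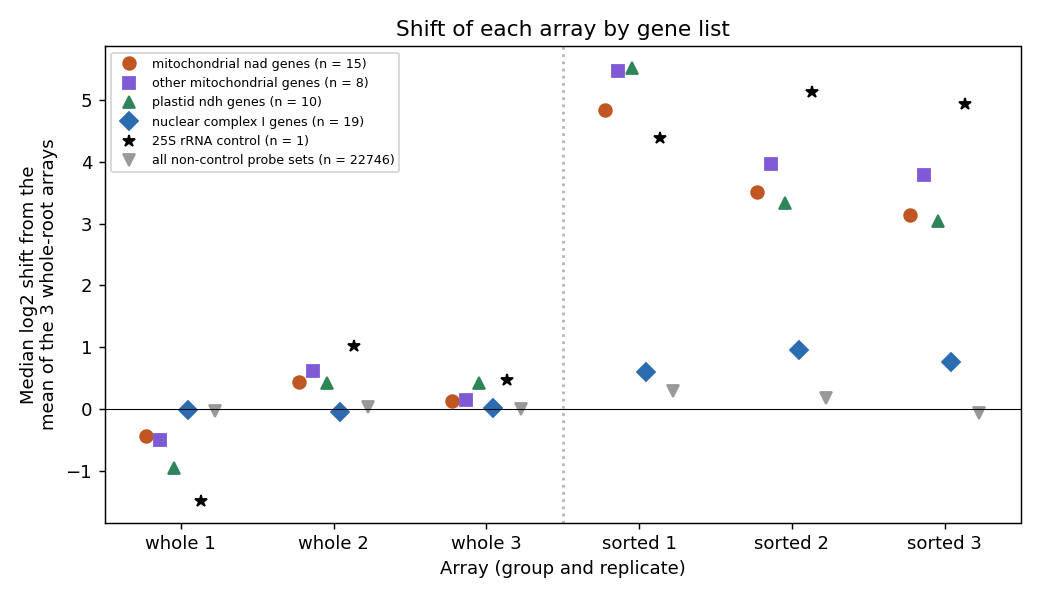
Median log2 shift of each array from the mean of the 3 whole-root arrays (vertical axis), for each array (horizontal axis), with 1 symbol per gene list and the number of probe sets in the legend. The nad genes, the other mitochondrial genes and the plastid ndh genes are highest on sorted-cell replicate 1 (4.84, 5.47 and 5.52), where the nuclear complex I genes (0.60) and the 25S control (4.38) are lowest among sorted cells.

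Other genes of the mitochondrial genome rose too. Of 28 symbols listed 8 had a probe set paired with 1 gene and 7 were tested, and all 7 were higher in sorted cells. For 5 of the 7 the whole-root mean was under the filter's minimum, so they too were tested because of their sorted-cell values; without the filter 8 of 8 were higher. They included cox1, a core subunit gene of cytochrome oxidase (6.20), mttB of a membrane transporter (6.12), ccmFN1 (3.60) and ccmB (2.97) of cytochrome c maturation. The maturase gene matR, which lies inside an intron of nad1, read at most 16 in whole roots and 302, 64.3 and 61.1 in sorted cells (4.06 ± 1.08 on the log2 scale; limma adjusted p = 0.0112). The probe sets of mttB and matR carry the _s_at ending described above for nad6. Relative to the nad median, cox1 and mttB stood higher, by 2.49 and 2.42 (limma adjusted p = 0.00326 and 0.00236), and the other 5 did not pass.

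The plastid genome encodes subunits of an NADH dehydrogenase-like complex that is related to complex I. Of 11 ndh genes listed 10 were tested, 6 of them with a whole-root mean under the filter's minimum, and all 10 were called higher. The smallest differences on the log2 scale were those of ndhG (2.67) and ndhC (2.71), and the largest fitted ones those of ndhK and ndhJ. The whole-root readings of ndhK were under the background level on every array, so it was at least 27.8-fold higher, and ndhJ (6.37) was above that level on 1 whole-root array. Relative to the nad median ndhJ and ndhK were called higher and the other 8 did not pass, but these 2 calls rest on whole-root readings mostly under the background level, both ended with an offset of 16, and without whole-root replicate 2 the count was 1. The call of ndhG against whole roots was lost without whole-root replicate 1 (2.07; limma adjusted p = 0.0626). That of ndhF was lost with array quality weights (3.15; limma adjusted p = 0.0583) and without sorted-cell replicate 1 (3.49; 0.0879) or 2 (4.93; 0.0504).

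The nuclear genes of complex I had smaller differences. Of 34 loci listed 19 had a probe set paired with 1 gene, all 19 were tested, and 14 rose, 1 fell and 4 did not pass. Their median difference was 0.83 on the log2 scale, against -0.16 over all tested probe sets. Without whole-root replicate 3 only 9 rises passed. The largest rise was that of AT3G03070, which codes for a small matrix-arm subunit, from 289, 292 and 404 in whole roots to 1396, 1587 and 1183 in sorted cells (2.09 ± 0.22 on the log2 scale; limma adjusted p = 9.92e-05). AT3G62790, an accessory subunit gene, rose by 1.66. AT5G11770, whose product holds the last iron-sulfur cluster before ubiquinone beside the nad7 subunit, stood at 0.042 and did not pass. AT2G20360, an accessory subunit gene of the matrix arm, stood at -0.62 (limma adjusted p = 0.0412), and this call was lost in 7 alternatives, among them the fits without whole-root replicate 1, 2 or 3. Relative to the nad median 18 of the 19 were lower, as were 93.7% of all tested probe sets, and the exception was AT3G03070 (-1.62; limma adjusted p = 0.0559).

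**Figure D3:**
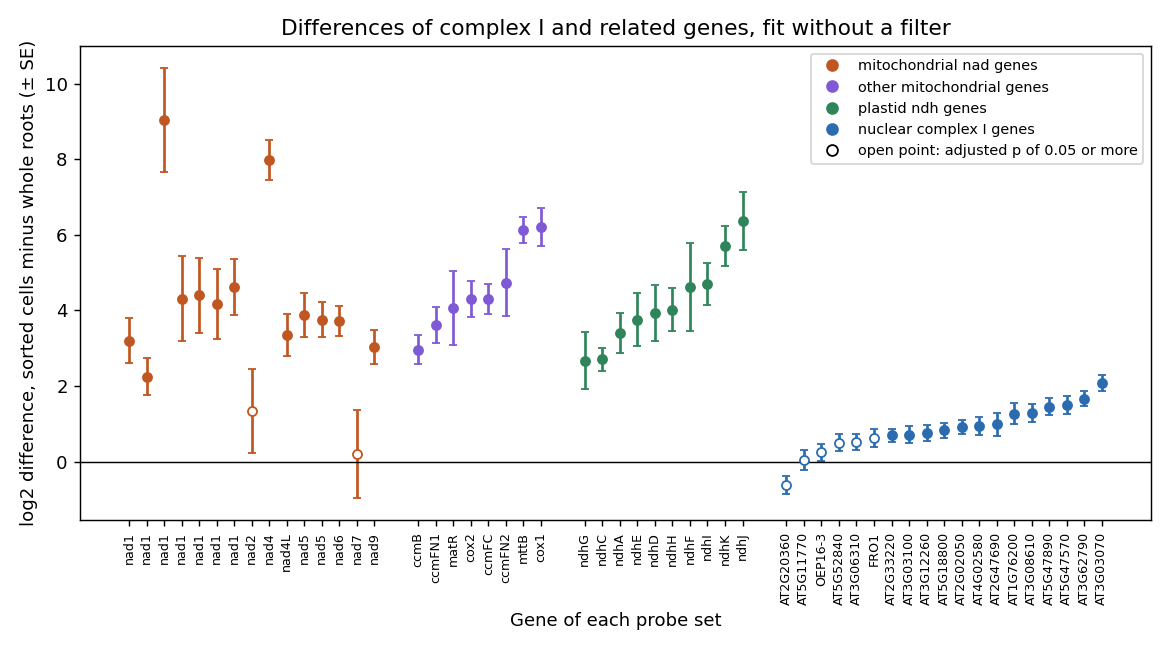
Log2 difference between sorted cells and whole roots (vertical axis, ± SE, limma without the filter on dim probe sets, n = 3 arrays per group) for each probe set of the mitochondrial nad genes, the other mitochondrial genes, the plastid ndh genes and the nuclear complex I genes. Open points had an adjusted p of 0.05 or more; the nuclear genes lie between -0.62 and 2.09, and of the nad probe sets nad2, nad7 and the nad1 probe set 257322_at (2.24) lie lowest.

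Plants can bypass complex I with type II NAD(P)H dehydrogenases, which pump no protons. Of 7 listed genes 5 had a probe set and 4 were tested. NDB3 rose, from 43.5, 41.7 and 26.0 in whole roots to 198, 187 and 89.2 in sorted cells (2.04 ± 0.38 on the log2 scale; limma adjusted p = 0.0019). NDC1 (-1.49) and NDB2 (-0.85) fell, and NDB1 stood at 0.0075 and did not pass. The call of NDB2 was lost without whole-root replicate 2 (-0.70; limma adjusted p = 0.0793). The 5 listed alternative oxidase genes were matched to no probe set with 1 gene and were not analysed here.

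Nuclear genes for the splicing and editing of nad RNAs were mostly too dim to test. Of 17 listed, 7 had a probe set and 2 were tested. AT5G46920, a maturase gene required for splicing of mitochondrial introns, fell from 279, 214 and 267 in whole roots to 166, 181 and 97.8 in sorted cells (-0.81 ± 0.27 on the log2 scale; limma adjusted p = 0.0278). This call was lost with quantile normalization (0.0604) and without whole-root replicate 1 or 3 or sorted-cell replicate 3. AT3G61360, whose product takes part in splicing of a nad7 intron, stood at 0.096 and did not pass. Of 3 listed organelle RNA polymerase genes only AT5G15700, a phage-type polymerase, had a probe set. It read 84.9, 73.5 and 80.9 in whole roots and 45.0, 8.37 and 8.99 in sorted cells, where no array was above the background level, and so was at least 2.57-fold lower (limma adjusted p = 0.0145 without the filter, which it did not pass).

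Over the 6 arrays the 5 tested genes whose log2 values followed the nad median profile most closely were AT5G58740, the plastid gene petA of cytochrome f, AT3G42800, VPS2.1 of membrane sorting and AT3G15680, with Pearson's r of 0.998 to 0.999. The 6 arrays share the difference between the groups, and 63 of 7329 genes' probe sets had an r over 0.99, so this likeness is a description. Their log2 differences, 1.09, 3.60, 2.70, 1.35 and 1.09, spanned a wide range. Among the members r ran from 0.864 for the nad1 probe set 257327_at to 0.998 for nad9.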

How the data were processed

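The authors deposited linear signal intensities; the submitters' processing notes name MAS5 as the source. Its version, scaling target and detection calls were not given in the sources used here. RNA was amplified in 2 cycles before biotin labelling, per the labels' protocols, for both groups. Means after trimming 2% at each end were 250.02 to 250.03 on every array, so the values were used as deposited. The members and lists were chosen with earlier results of these data known. Members were matched by symbol; all 8 symbols are in the mitochondrial part of the reference gene table (TAIR10.1, used for names only), though the annotation's older gene numbers are not.

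In R 4.3.3, limma 3.58.1 (lmFit, then eBayes with a variance trend) was run on the log2 intensities of all 13647 probe sets kept, with Benjamini-Hochberg adjustment. The fit was run on simulated data. These had no background floor and few changed probe sets, so they do not test calls near the background level. Tables and plots used Python 3.11.15, pandas 2.3.3, numpy 2.4.6, scipy 1.17.1 and matplotlib 3.10.9. Every member was named; of each other list the 2 largest and 2 smallest differences among tested genes could be named, and the only polymerase gene with a probe set was added after its values were seen, as were matR and ndhF. The 6 arrays limit the precision. The alternatives left out each array in turn, used the replicate number for blocking, asked for a 2-fold change, added 16 or 64 to each intensity, dropped the filter or raised it to 60%, took the variance as robust or without a trend, weighted arrays by quality, and normalized by quantiles or by the median.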

Additional observations from a re-analysis of the deposited data

How the results depend on the processing

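The 11 calls of nad probe sets were kept in every alternative, except that with the dimmest 60% left out only 4 nad probe sets were tested, of which 4 were called. The count was 13 with no filter and 11 in each fit that left out 1 array. Fits without 1 array used the probe sets chosen on all 6 arrays, so the kept calls are a description. Over all probe sets 7564 were called, 5976 to 8271 with 1 array left out, and no alternative moved this by over 1.5 times. Relative to the nad median 2 nad probe sets were called (2 to 3 with 1 array left out), 4 with no filter and 1 with the dimmest 60% left out. The 2 that joined without the filter were nad2 and nad7, with no sorted-cell reading above the background level, so these calls give no measured difference. The relative difference of the nad1 probe set 257323_at was -0.40 with an offset of 16 and -0.88 with an offset of 64; an offset shrinks differences of dim probe sets by construction. Of the 10 other nad probe sets 6 changed the sign of their relative difference in some alternative, none of them called there. Array quality weights could not be fitted after centring on the nad median. An offset of 64 moved the log2 difference of 10 called nad probe sets by over 1.5 times, down to 1.14 for the lowest, and that of nad4 to 5.94. Genes near 0 changed sign: AT5G11770 stood at -0.33 with quantile normalization, -0.00050 with median centring and -0.090 and -0.059 without sorted-cell replicate 2 or 3 (-0.090 to 0.27 with 1 array left out). NDB1 stood at -0.035 with median centring, -0.026 with array quality weights, -0.030 without whole-root replicate 3 and -0.051 without sorted-cell replicate 2 (-0.051 to 0.047 with 1 array left out). AT3G61360 stood at -0.0025 with quantile normalization, -0.0087 with array quality weights and -0.21 without sorted-cell replicate 2 (-0.21 to 0.29 with 1 array left out). The causes were not tested. Deviations from the group means of samples with the same number correlated at -0.29, -0.16 and -0.042 over 13647 probe sets. With 3 arrays per group, these values cannot show whether samples of the same number were handled together. With the replicate block 11 nad probe sets and 6815 probe sets in all were called, and 2 relative to the nad median. The call of ndhF was lost with that block (limma adjusted p = 0.0522). The dimness of nad probe sets in whole roots limits the size of each difference.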
